A study of Mus musculus with 3 samples.

Results

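The 8 genes described here encode the constant parts of the T cell receptor and its CD3 signalling subunits. They are Trac, Trbc1, Trbc2 and Trdc (constant regions of the alpha, beta and delta chains) and Cd3e, Cd3d, Cd3g and Cd247 (CD3 epsilon, delta, gamma and zeta). They were chosen by name from 50600 annotated mouse genes, and each matched 1 gene. RNA was sequenced from primary regulatory T cells of C57BL/6NJ mice in 3 libraries, numbered replicates 2, 3 and 4. Per the file headers, the cells had been activated for 16 hours. These libraries form 1 group without a second condition, so genes were compared within each library and the libraries with each other. Age is unknown and sex was not collected. The labels link a protocol whose name refers to differentiation of CD4 T cells, and do not say whether the cells were taken as such from mice or made in culture. They name total RNA as the molecule, while the library protocol they point to is named for PolyA+ RNA.

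Most CD4 T cells recognise antigen through an alpha-beta heterodimer, whose constant regions anchor the receptor in the membrane and hold it to the CD3 subunits. The heterodimer has almost no cytoplasmic tail. Signalling passes to CD3 gamma-epsilon and delta-epsilon pairs and to a zeta pair, whose tails carry the activation motifs (ITAMs) that Lck phosphorylates and Zap70 binds. A smaller T cell lineage uses gamma and delta chains with the same CD3 subunits. In regulatory T cells, receptor signals are required for suppressive function.

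The labels gave all 3 libraries the same donor identifier, yet the libraries differed in sex-linked transcripts. Xist, transcribed from the inactive X chromosome, had 126, 0.331 and 36.1 TPM (fragments per exon length, scaled to the same total in each library) in replicates 2, 3 and 4. Y-linked Ddx3y had 0.126, 39.3 and 28.4 TPM. Replicate 2 was thus high for Xist and near 0 for Ddx3y, replicate 3 was the opposite, and replicate 4 held both transcripts. The SDs below cover the spread between these libraries only, part of which may be technical. Depth was 41222058, 47665060 and 99097524 assigned fragments. Regulatory T cell markers were present, and 6 of 6 reached 1 TPM in every library. Foxp3, the lineage's defining transcription factor, had 76.4, 82.3 and 83.9 TPM. Il2ra, the interleukin-2 receptor alpha chain, was the highest of that list at 658 ± 23.3 TPM, and Ikzf2 (Helios) the lowest at 3.22 ± 0.655 TPM (SD, n = 3). All 4 of the CD4 T cell markers were above 100 TPM in every library.

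Most of the receptor genes were abundant in these cells. By merged exon length, Trdc was low and Cd3g, at place 2079 of all genes, was below 100 TPM in replicates 3 and 4. With the length of the longest coding transcript, Cd3g had 259, 223 and 206 TPM in replicates 2, 3 and 4, at place 774. By merged length, all 8 reached 1 TPM in every library. Of these, 6 reached 100 TPM in every library, a level that 8.80% of the 21764 protein-coding genes reached. Their median level was 243 TPM, against 32.3 TPM for the 9926 protein-coding genes whose 3 libraries all reached 1 TPM. Together they took 4039, 4133 and 3949 TPM in replicates 2, 3 and 4, which is 4040.2 ± 92.3 TPM (SD, n = 3), and 0.151%, 0.155% and 0.145% of all assigned fragments. Trac alone made up 43.2%, 42.8% and 43.5% of that summed TPM.

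**Figure D1:**
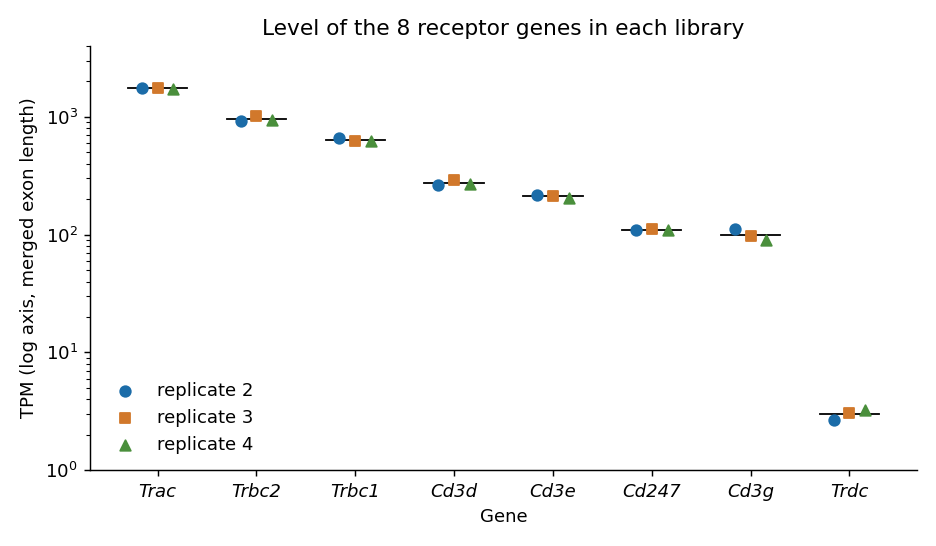
TPM (log axis, merged exon length) of the 8 genes in each of the 3 libraries, with a black line at the mean. Trac is highest at a mean of 1743 TPM and Trdc lowest at 2.99 TPM, and the 3 points of each gene lie close together.

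Trac encodes the alpha constant region and lies at the 3′ end of the alpha-delta locus (mm10, 14:54220521-54224206, plus strand). It had 1744, 1769 and 1716 TPM from 19898, 23705 and 46901 fragments, which is 1743 ± 26.3 TPM (SD, n = 3), and stood at place 50 of all genes by merged length and 96 by the longest coding transcript. Of the 11273 genes that reached 1 TPM in each library, 99.6% were lower. The nearest protein-coding gene downstream, Dad1, which encodes a subunit of the oligosaccharyltransferase, ends 11273 bases away and had 145 ± 5.50 TPM.

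Trbc1 and Trbc2 encode near-identical beta constant regions, each downstream of its own cluster of joining segments (6:41538218-41539881 and 6:41546730-41548352, plus strand). Trbc2 had 929, 1021 and 939 TPM in the 3 libraries, which is 963 ± 50.2 TPM. Trbc1 had 661, 626 and 618 TPM, which is 635 ± 22.7 TPM (SD, n = 3). Trbc2 was thus higher than Trbc1 in 3 of 3 libraries, by 0.60 ± 0.11 on the log2(TPM + 1) scale, with per-library ratios of 1.41, 1.63 and 1.52.

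The sequences show how much of these genes the fragments can tell apart. In the GENCODE M21 transcripts, 23 of 518 coding bases differed, an identity of 95.6%. The first exon, 375 bases long in both genes, held 1 difference, C260A (the Trbc1 base, its position counted from 1 at the first base of the transcript, then the Trbc2 base). Exon 3, which encodes much of the membrane-spanning part, held 15 differences in 107 bases. The stretch around the first-exon difference (bases 230 to 290) and the spliced stretch over exons 3 and 4 (bases 394 to 518) are given in lower case on the plus strand, with the differing bases in capitals. The first pair comes from GRCm38 6:41538447-41538507 and 6:41546959-41547019, the second from within 6:41539229-41539662 and 6:41547772-41548178.
Trbc1, first exon: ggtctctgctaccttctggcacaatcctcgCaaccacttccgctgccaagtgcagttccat
Trbc2, first exon: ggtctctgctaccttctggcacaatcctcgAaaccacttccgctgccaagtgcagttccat
Trbc1, exons 3 and 4: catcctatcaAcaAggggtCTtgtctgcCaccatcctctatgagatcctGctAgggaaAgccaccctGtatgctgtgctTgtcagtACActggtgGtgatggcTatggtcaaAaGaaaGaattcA
Trbc2, exons 3 and 4: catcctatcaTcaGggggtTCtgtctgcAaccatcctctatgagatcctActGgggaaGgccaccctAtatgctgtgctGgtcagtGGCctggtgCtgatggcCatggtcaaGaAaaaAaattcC

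Fragments that align to both genes were left out of the counts by the counting program's defaults, so a level over the whole exon length can be too low for both beta genes. Fragments that also covered a joining or variable segment were left out by the same defaults. Levels of Trac and Trdc, as well as those of the beta genes, can be too low for that reason, and by how much was not tested. Of all 100-base windows along the Trbc1 transcript, 71.3% were absent from Trbc2. Of those along Trbc2, 69.1% were absent from Trbc1. At 200 bases the shares were 88.8% and 87.8%. The share of sequence that tells the genes apart was thus similar for both.

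The 2 beta clusters were set against each other as shares of fragments. Trbc1 took 43.5% (95% Wilson interval 42.7% to 44.3%), 39.9% (39.2% to 40.7%) and 41.6% (41.1% to 42.2%) of Trbc1 and Trbc2 fragments in replicates 2, 3 and 4, which is 41.7% ± 1.80 (SD, n = 3). None of these intervals overlapped another, and all lay below an even split. Joining segments gave a second reading, on fragments that did not also cover a constant or variable gene, since fragments shared by genes were left out. Whether such fragments measure cluster use was not tested. Trbj1 segments, which lie upstream of Trbc1, took 49.0% (45.9% to 52.2%), 39.6% (36.7% to 42.6%) and 40.0% (38.1% to 42.0%) of Trbj fragments in the same order. Replicate 2 was the highest on both readings, and replicates 3 and 4 overlapped each other on the joining segments. The Trbj shares rest on 973, 1078 and 2440 fragments, and all these intervals cover counting error only.

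**Figure D2:**
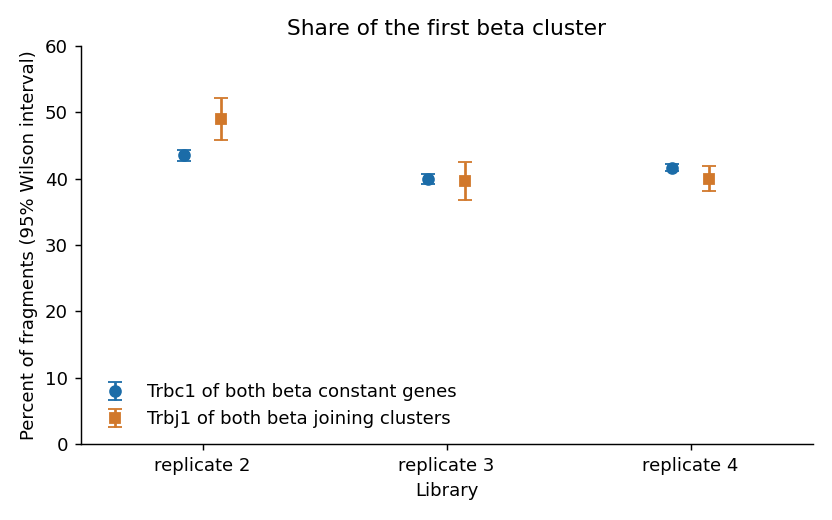
Percent of fragments from the Trbc1 gene (circles) and from the Trbj1 segments (squares) in each library, with 95% Wilson intervals. Replicate 2 has the highest share on both readings, at 43.5% and 49.0%.

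Set against both beta genes together, Trac stood at nearly the same level. Trbc1 and Trbc2 summed to 1590, 1647 and 1557 TPM, so that Trac was 1.10, 1.07 and 1.10 times their sum, a difference of 0.13 ± 0.02 (SD, n = 3) on the log2(TPM + 1) scale, higher in 3 of 3 libraries. The direction depended on the length used. With 200 bases taken off each exon length the mean difference was -0.0024. Counts of windows were also used as lengths, those that tell the beta genes apart for Trbc1 and Trbc2 and all windows for Trac. The difference was then -0.45 at 100 bases and -0.19 at 200 bases. No order of alpha over beta can be read from these counts.

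Trdc encodes the delta constant region, inside the alpha-delta locus (14:54142851-54148868, plus strand). It was the lowest of the 8 genes in every library, with 2.65, 3.09 and 3.22 TPM from 125, 171 and 364 fragments, which is 2.99 ± 0.299 TPM (SD, n = 3). That placed it at 10313 of all genes, above 8.99% of the 11273 genes that reached 1 TPM in each library. Trac was 658, 573 and 533 times higher in TPM. On the log2(TPM + 1) scale Trac was 8.78 ± 0.12 higher, a difference that the added 1 makes smaller for a gene as low as Trdc. With 0.1 added in place of 1, the difference was 9.15. Trdc made up 0.0794%, 0.0903% and 0.0983% of the summed TPM of the 4 constant genes. Of their fragments, which are not divided by length, it made up 0.369%, 0.420% and 0.456%. Fewer cells with a transcript and less transcript per cell cannot be told apart in such bulk samples.

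The other genes of the gamma-delta receptor gave little signal. The 4 gamma constant genes (Tcrg-C1 to Tcrg-C4) held 0, 0 and 6 fragments in replicates 2, 3 and 4. Tcrg-C2 held none, and 3 fragments would have made 0.269 TPM in the shallowest library. The 6 Trdv segments held 28, 61 and 68 fragments and the 2 Trdj segments 2, 0 and 3 fragments, against 660 fragments in all for Trdc. Exon 4 of Trdc is 3403 bases of untranslated sequence, which is 88.0% of the annotated transcript, and the deposited counts do not say which exon the fragments came from. Among the 6 markers of gamma-delta T cells reported here, 1 reached 1 TPM in every library, which was Trdc itself. The summed level of these 6 ran from 3.30 to 3.91 TPM over the libraries, most of it from Trdc.

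The CD3 genes came below the alpha and beta constant genes in every library under each length rule tried. Cd3e, Cd3d and Cd3g lie within 40056 bases on chromosome 9 (9:44998740-45009627 minus strand, 9:44981786-44987339 plus strand and 9:44969572-44980431 minus strand). Cd247 lies apart on chromosome 1 (1:165788681-165877277, plus strand). The 4 genes summed to 702, 714 and 672 TPM, which is 696 ± 21.7 TPM (SD, n = 3). Their neighbours stood lower. Ube4a, a ubiquitin ligase gene 3972 bases from Cd3g, had 34.6 ± 2.26 TPM, and Mpzl2, an adhesion protein gene 30172 bases from Cd3e, had 1.99 ± 0.121 TPM.

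Cd3e encodes the subunit present in both the gamma-epsilon and the delta-epsilon pair. Its level was 218, 213 and 205 TPM from 10833, 12482 and 24392 fragments, which is 212 ± 6.65 TPM (SD, n = 3). Trac was higher than Cd3e in 3 of 3 libraries, by 3.03 ± 0.03 on the log2(TPM + 1) scale with merged exon length, and by 1.56 with the longest coding or the APPRIS principal transcript as length. Cd3d, the partner of Cd3e in the delta-epsilon pair, had 263, 293 and 269 TPM from 5821, 7611 and 14258 fragments, which is 275 ± 15.7 TPM. It was highest in replicate 3.

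Cd3g, the partner of Cd3e in the gamma-epsilon pair, had 112, 97.0 and 89.6 TPM from 4473, 4547 and 8565 fragments, which is 99.6 ± 11.5 TPM (SD, n = 3). Replicate 2 was the highest and replicate 4 the lowest. Cd247, the zeta chain that carries most of the complex's ITAMs, had 109, 111 and 109 TPM from 7114, 8488 and 16966 fragments, which is 110 ± 1.16 TPM. Its coefficient of variation of 1.06% was smaller than that of all but 2.20% of the 7743 protein-coding genes with a mean of 10 TPM or more. A same-strand gene, Gm16565, shares 206 exon bases with Cd247 and held 57, 65 and 144 fragments, and fragments that overlap both genes were left out.

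The order among the CD3 genes rested on the length by which counts were divided. Merged exon lengths, which the deposited files give, include retained-intron transcripts such as Cd3e-202 (2550 bases) and Cd3g-202 (2539 bases). They come to 4080 bases for Cd3e, 1815 for Cd3d, 3269 for Cd3g and 5329 for Cd247. The longest coding transcripts have 1462, 1617, 1023 and 2957 bases in the same order of genes. By the merged length, Cd3e was below Cd3d in 3 of 3 libraries, by -0.37 ± 0.09 on the log2(TPM + 1) scale. By the coding length, Cd3e stood at 426 ± 13.6 TPM and Cd3d at 222 ± 12.3 TPM (SD, n = 3), and the difference turned to 0.94. Cd3g stood at 229 ± 26.7 TPM and Cd247 at 143 ± 1.29 TPM by that length.

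Other CD3 pairs moved likewise. Cd3d was above Cd3g by 1.46 ± 0.21 on the log2(TPM + 1) scale by merged length, and by coding length the difference was -0.041, within the spread between libraries. Cd3e was above Cd3g by 1.09 ± 0.12 and above Cd247 by 0.94 ± 0.04 by merged length, in 3 of 3 libraries each, and kept both directions under every length tried. With the APPRIS principal transcript, which is 1632 bases for Cd247, Cd247 stood at 247 ± 2.27 TPM. Cd3e is thus the highest CD3 gene under transcript lengths and not under merged length, and no order of the other 3 held under all of them.

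**Figure D3:**
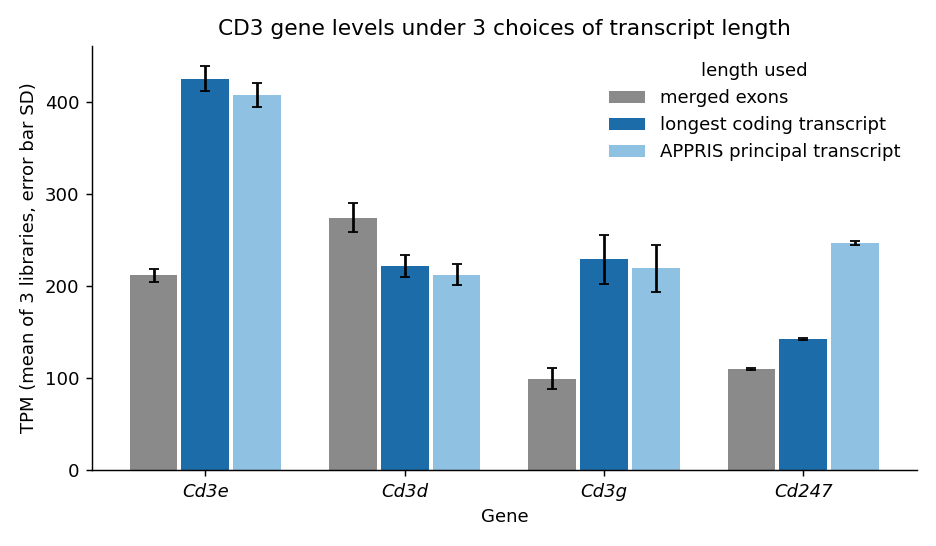
TPM of the 4 CD3 genes with counts divided by merged exon length (grey), longest coding transcript (dark blue) and APPRIS principal transcript (light blue), as means of 3 libraries with SD as error bars. Cd3e goes to 426 TPM under coding length, against 212 TPM under merged length. Cd3d goes the other way, to 222 TPM against 275 TPM.

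An exact sign-flip permutation test (two-sided) gave p = 0.25 for each of the 8 planned pairs of levels, and 0.25 after adjustment over them. That is the smallest p that 3 libraries allow, so no pair can pass a threshold of 0.05. Neighbouring pairs were taken down the order of merged-length levels (Trac, Trbc2, Trbc1, Cd3d, Cd3e, Cd247, Cd3g, Trdc). That order came from the means of these same 3 libraries, so the direction of each mean difference was largely fixed in advance. Of the 7 neighbouring pairs, 6 differed in the same direction in all 3 libraries. The exception was Cd247 against Cd3g, with differences of -0.035, 0.19 and 0.28 on the log2(TPM + 1) scale in replicates 2, 3 and 4, which overlap 0 (exact sign-flip p = 0.50). Of the neighbours with 1 direction, Cd3d against Cd3e was closest, at 0.37 ± 0.09.

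Between libraries, none of the 8 genes was called different, where a call needed both an adjusted p below 0.05 and at least a ratio of 2 between the highest and the lowest library. Of the 13688 genes tested, 11.0% were called. The chi-square test of equal rates, scaled by edgeR's TMM factors and adjusted over all genes, passed 0.05 for 7 of the 8 genes, both before and after adjustment, as it did after adjustment for 70.5% of all genes tested. It takes fragments as independent, so at these depths small differences pass. Trdc was the gene that did not pass, at an adjusted chi-square p of 0.159 with edgeR's TMM factors. With DESeq2 size factors or library totals in place of TMM, the count of called genes among the 8 was 0 again. Their ratios reached 1.24 at most (Cd3g) and the scalings differed little, so this could hardly have come out otherwise.

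The ratio of the highest to the lowest library, in CPM (counts scaled for library size), was 1.05 for Trac, 1.06 for Trbc1, 1.13 for Trbc2 and 1.23 for Trdc. Among CD3 genes it was 1.06 for Cd3e, 1.15 for Cd3d, 1.24 for Cd3g and 1.05 for Cd247. The median of the 8 ratios was 1.10, beside 1.19 over all genes tested and 1.13 over protein-coding genes with a mean of 10 TPM or more. Cd3g thus varied most, and its coefficient of variation of TPM, 11.5%, was larger than that of 87.7% of the protein-coding genes at that level. In CPM, replicate 3 was the highest library for Trac, Trbc2, Cd3e, Cd3d and Cd247, replicate 2 for Trbc1 and Cd3g, and replicate 4 for Trdc. In TPM, replicate 2 was the highest for Cd3e.

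**Figure D4:**
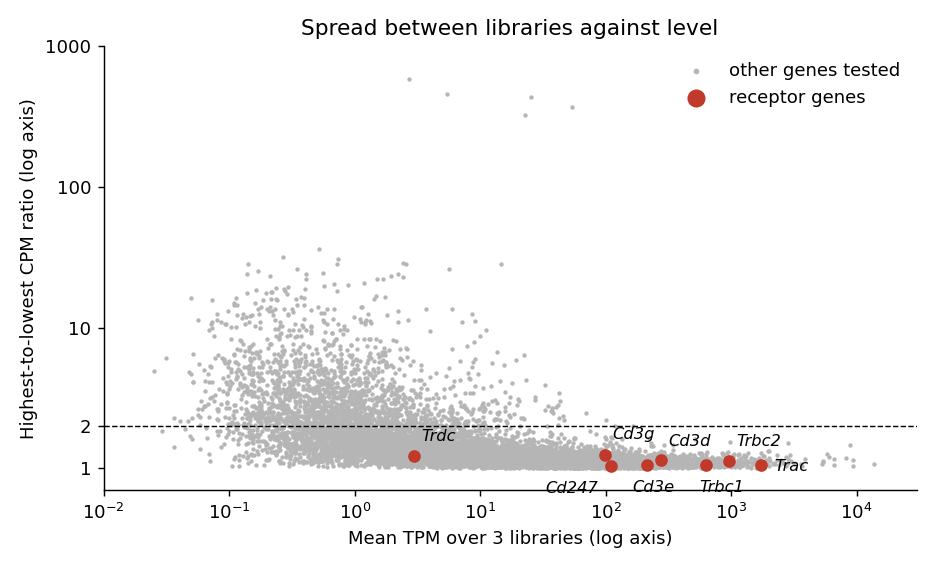
Highest-to-lowest CPM ratio over the 3 libraries against mean TPM (both log axes) for all genes tested (grey) and the 8 receptor genes (red). All 8 lie below the dashed line at a ratio of 2, between 1.05 for Cd247 and 1.24 for Cd3g.

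Cd3d and Cd3g are transcribed away from each other from starts 1355 bases apart, and their library orders differed, with Cd3d highest in replicate 3 and Cd3g in replicate 2. Their upstream sequences are shown as a description, and a link between them and the library orders was not tested. Each runs over 250 bases before the RefSeq start (GRCm38.p6), 5′ to 3′ on the gene's own strand, from 9:44981536-44981785 (plus) and 9:44980432-44980681 (minus). Capitals mark CACCTG, an E-box that the E proteins Tcf3 and Tcf12 can bind.
Cd3d: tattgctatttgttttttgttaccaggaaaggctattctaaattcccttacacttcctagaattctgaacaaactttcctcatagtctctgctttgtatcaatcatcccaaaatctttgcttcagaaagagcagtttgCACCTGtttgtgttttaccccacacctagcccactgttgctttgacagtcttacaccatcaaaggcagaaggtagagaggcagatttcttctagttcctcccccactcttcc
Cd3g: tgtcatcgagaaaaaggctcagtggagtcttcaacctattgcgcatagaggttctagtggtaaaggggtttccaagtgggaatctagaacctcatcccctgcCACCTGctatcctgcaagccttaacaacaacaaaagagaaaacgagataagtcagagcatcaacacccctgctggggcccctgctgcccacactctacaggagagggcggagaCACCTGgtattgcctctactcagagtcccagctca

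The promoter table matched 4 of the 8 genes, Cd3e, Cd3d, Cd3g and Cd247, and motifs were searched on both strands of these 250 bases. CACCTG or its complement CAGGTG occurred in 3 of the 4, once in Cd3d and Cd247 and 2 times in Cd3g, and in 17.2% of 32851 RefSeq promoters of the same length. CTTCCT or AGGAAG, an ETS core with flanks, occurred in 3 of the 4 (Cd3e, Cd3d and Cd247) and in 29.5% of all promoters. CTTTGA or TCAAAG, a TCF core, occurred only in Cd3d among the 4 (13.8% of all). Of the 4, Cd3g alone held AGATAA or TTATCT, which Gata3 can bind (9.99% of all). TGTGGT or ACCACA, a RUNX core, and TATAAA or TTTATA, the TATA box, occurred in none of the 4, against 14.0% and 12.4% of all promoters. No match of one motif overlapped a match of another in these 4 promoters, and a match describes the sequence only.

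All 14 of the transcription factors listed for T cell receptor and CD3 genes reached 1 TPM in each library, and 6 reached 100 TPM. Tcf7, which acts from the earliest T cell stages, was the highest at 1017 ± 26.2 TPM, and Myb the lowest at 5.26 ± 0.461 TPM (SD, n = 3). Their median level was 83.2 TPM. Of the 14, 0 were called different between libraries, beside 11.0% of all genes tested.

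Of the receptor's partners, the co-receptor Cd4 stood at 571, 604 and 599 TPM, between Trbc1 and Cd3d by merged length. Trat1, an adaptor that stabilises the receptor complex, had 29.2, 22.2 and 22.6 TPM. Fcer1g, which can replace the zeta chain in some lymphocytes, had 1.87, 0.239 and 0.117 TPM, highest in replicate 2. These values rest on 20, 3 and 3 fragments, too few for the test between libraries. In the shallowest library, 3 fragments would have made 0.281 TPM. Cd8b1 had 28.2, 28.6 and 23.9 TPM, while Cd8a, the partner it needs to reach the surface, had 0.338, 0.403 and 0.508 TPM. The pair of CD8 chains thus stood far apart in level.

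Most signalling genes next to the receptor were abundant too. Of 21 genes, 20 reached 1 TPM in every library and 13 reached 100 TPM, with a median level of 214 TPM. Cd5, a surface protein that tempers receptor signals, was the highest at 933, 1084 and 1074 TPM. Syk, the kinase related to Zap70, was the lowest at 0.0700, 0.0894 and 0.164 TPM, and was the only gene of the 21 called different between libraries (11.0% of all genes tested were), on 8, 12 and 45 fragments. Genes of receptor rearrangement were near 0. Ptcra, the pre-T alpha chain that pairs with beta in thymocytes, and Rag2 held no fragment, where 3 fragments in the shallowest library would have made 0.192 and 0.0718 TPM. Dntt was the highest of the rearrangement genes, at 0.424, 0.0984 and 0.145 TPM. Of these 3 genes, 1 was called different between libraries, Rag1, at 0.211, 0.0528 and 0.0518 TPM.

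**Figure D5:**
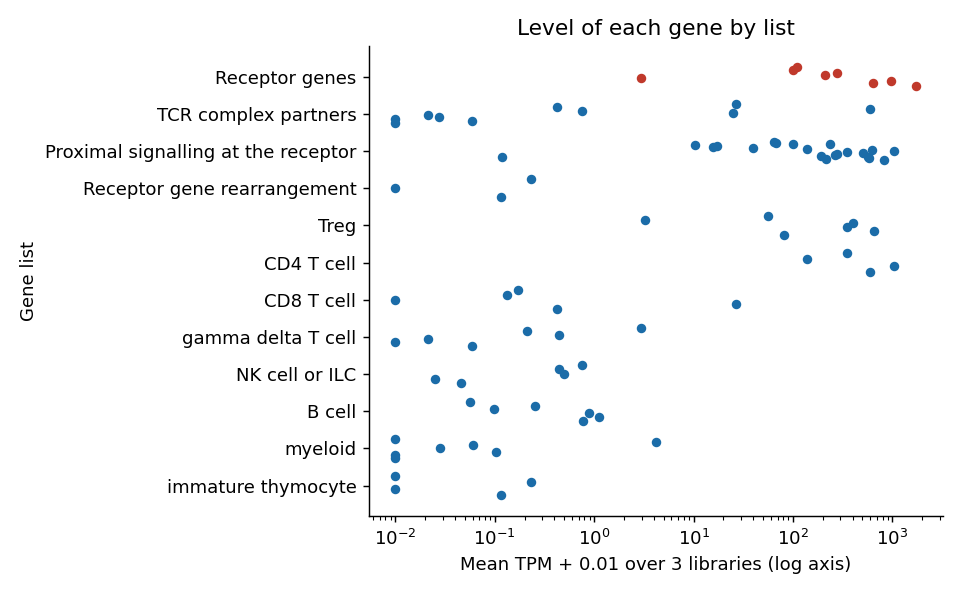
Mean TPM + 0.01 over the 3 libraries (log axis) of each gene, by gene list, with the 8 receptor genes in red. The receptor, signalling, Treg and CD4 lists reach 658 TPM or more, while the other lineages lie mostly below 1 TPM, apart from Cd8b1, Trdc, Cd79a and Cd68.

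Markers of other lineages were low beside the receptor genes. Among CD8 T cell markers, 1 of 5 reached 1 TPM in every library, which was Cd8b1, and Gzmk held no fragment. None of 5 markers of NK cells or innate lymphoid cells and none of 6 B cell markers reached it, with summed levels from 1.06 to 2.82 TPM and from 3.04 to 3.24 TPM. Cd79a was the highest B cell marker at 1.12 ± 0.233 TPM (SD, n = 3). Among 7 myeloid markers, only Cd68, a lysosomal protein gene, reached 1 TPM in every library, at 5.28, 4.22 and 2.97 TPM, and Lyz2, Csf1r and C1qa held no fragment.

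For each receptor gene, the protein-coding gene nearest to it in level over the 3 libraries was found by the root mean square difference of log2(TPM + 1). Trac was nearest to Cfl1, the actin regulator cofilin, at 0.0216. Trbc2 was nearest to Cd52, a lymphocyte surface protein, at 0.0190, and Trbc1 to Eif4g2, a translation factor, at 0.0274. Cd3d was nearest to Ezr, the membrane linker ezrin, at 0.0253. Cd3e was nearest to Dnajc9 (0.0177), Cd3g to Atf1 (0.0253), Cd247 to Ppdpf (0.0216) and Trdc to Abhd15 (0.0380). The measure compares levels only and uses merged exon length for every gene.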

How the data were processed

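The deposited files hold the authors' raw fragment counts for each gene, with merged exon lengths. Per the file headers, they were made with featureCounts 1.4.6-p4 over GENCODE M13 exons on paired, reverse-stranded alignments (strand option 2). The build is mm10 per the labels. The headers' file names refer to STAR; aligner settings are not given in the sources used. No option in the command counts multi-mapping fragments or those shared by genes, which the program leaves out by default. Read-me files were not used.

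Symbols and transcript lengths came from GENCODE M21 (50376 of 50600 identifiers matched), and gamma constant symbols from RefSeq synonyms. TPM was computed from counts over merged exon length. The 8 genes, the gene lists and the motifs were chosen with earlier results of these data known. All 8 genes are named. By rule, the highest and the lowest gene of a list, those without a fragment, all receptor partners and the nearest genes by position and by level could be named, and not all of them are. Other genes named (Foxp3, Xist, Ddx3y, Rag1) check the labels or were named after their values were seen, and 1 gamma-delta marker is not reported here.

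With 1 group, edgeR's quasi-likelihood test had no contrast. Pairs of levels were tested by exact sign-flip permutation. The comparison of libraries was a chi-square test of each gene (summed count of 30 or more) on TMM sizes (edgeR 4.0.16, R 4.3.3), with DESeq2 1.42.0 size factors as an alternative. Simulated data for that comparison over 13555 genes held sampling noise only, with no further spread between libraries. Changed genes were drawn only from those above a minimum of expected fragments in the shallowest library. On these data, 100 of 100 genes changed 2.5-fold, 100 of 100 changed 4-fold and 2 of 13355 unchanged genes were called. The real libraries differed by more than sampling noise, so the simulation does not give their rate of false calls. No pair of libraries agreed within sampling noise, with a chi-square per gene of 17.2 to 26.6. Intervals and floors of 3 fragments cover counting error only. Other steps used Python 3.11.15, scipy 1.17.1 and pandas 2.3.3. RefSeq promoters are of GRCm38.p6.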

Additional observations from a re-analysis of the deposited data

How the results depend on the processing

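Over 17 results, 123 of 140 alternatives kept the direction and call, the value within 1 SD between libraries, or a count of calls within 1.5 times. Many of these could not have come out otherwise, so the tally is no measure of robustness. Rescaling TPM or changing the pseudocount cannot alter the sign of a pair within a library. Transcript lengths equal merged lengths for Trac, Trbc2 and Trdc. The lengths that use transcripts or distinguishing windows were added after seeing the data. Differences in log2(TPM + 1) that changed sign were Trac minus summed Trbc1 and Trbc2, at -0.0024 with 200 bases off each length, -0.45 with 100-base and -0.19 with 200-base distinguishing windows. For Trac, all windows of that size along its merged length were counted. Cd3e minus Cd3d turned to 0.94 under both transcript lengths, and Cd3d minus Cd3g to -0.041 under both. Cd247 minus Cd3g turned to -0.68 under the longest coding transcript. The share of Trdc in constant-gene TPM was 0.0709% with 200 bases off, beside 0.0893% as reported. The summed TPM of the 8 genes was 4574 with 200 bases off, 4214 over protein-coding genes, 3436 under the longest coding and 3403 under the APPRIS transcripts. Trac minus Cd3e kept its direction at 1.56 under both transcript lengths, against 3.03. The count of all genes called between libraries was 2205 at a ratio of 1.5, 2690 with no count filter (20470 genes tested), and 523 to 777 with 1 library left out, against 1505. No receptor gene was called under any of these. The largest of their ratios was 1.24 (Cd3g), below a cut of 1.5 or 2, so this outcome was largely fixed in advance. Leaving out a library changed no direction. That was fixed in advance for pairs with the same direction in every library, which were all but Cd247 minus Cd3g. With 2 libraries the smallest sign-flip p is 0.50. Genes were paired within each library, and no pairing of samples between conditions was possible because there is 1 group. Depth limits Trdc most, on 125 to 364 fragments a library.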
